A study of Homo sapiens with 3 samples.

Results

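The tensins are a family of 4 genes, TNS1, TNS2, TNS3 and TNS4, and their expression was read from single-colour microarrays of HCT116 cells, a human colorectal cancer cell line. The members were the probes for transcripts that the array files name TNS1, TNS2 (also called TENC1), TNS3 or TNS4, which gave 6 of 58201 probes and 4 of 43299 gene names. The study compared cells transfected with either of 2 small interfering RNAs against SMARCA4 (SMARCA4-KD1 and SMARCA4-KD2) with cells that received a scrambled negative control (NC), and this series holds 1 array of each. SMARCA4 is an ATPase that drives SWI/SNF, a complex that moves nucleosomes, and the comparison asked which genes change when it is depleted. All 3 groups were the same cell line in the same medium, with no other treatment named. The time between transfection and RNA extraction was not given in the sources used here.

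Tensins are adaptor proteins of focal adhesions, the sites where integrins tie the extracellular matrix to the actin cytoskeleton. At their carboxy-terminal end they carry an SH2 domain, which binds phosphorylated tyrosines, and a PTB domain, which binds the tails of beta integrins. TNS1, TNS2 and TNS3 also have an amino-terminal region that reaches actin, and TNS4, also called CTEN, lacks it. TNS4 is known in the colon as a gene raised in many tumors, where it has been tied to cell motility and to the stability of the EGF receptor.

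Each probe is a single DNA strand of 60 bases, and what it reports is the transcript that carries that stretch. The final 30 bases of 3 of them are shown, 5′ to 3′, because they hold the TNS4 result, the second TNS1 probe with its larger change, and a contrast to TNS4. Capitals mark AATAAA or ATTAAA, the letters of the polyadenylation signal and of its common variant, searched on the printed strand.
TNS4: acagctcctatcatgaaaAATAAAatgttt
TNS3: gtgttacatgtgcATTAAAcagaacaagct
TNS1, second probe: gcattgtactgatatataaatattatataa
The TNS4 probe holds AATAAA 6 bases before its end, and the TNS3 probe holds ATTAAA 11 bases before its end. Neither motif was found in the final 30 bases of the 3 TNS1 probes or of the TNS2 probe. A match is a description of the letters only. In the genome build of the array files (hg19) the TNS4 probe lies on the minus strand at chr17:38632098-38632157 and the TNS3 probe on the minus strand at chr7:47315219-47315278. The TNS2 probe lies on the plus strand at chr12:53457567-53457626. The 3 TNS1 probes lie on the minus strand at chr2:218664861-218664920, chr2:218667569-218667628 and chr2:218747097-218749779. The last of these covers 2683 bases of the genome with 60 bases of probe, so it reads across a splice junction. An annotation of hg19 was not used here, so exon and UTR positions are not given.

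The labels were checked first, because sample titles and the siRNA protocol name SMARCA4 while the treatment field names PRMT1. The processed signal of SMARCA4 was 3960 (SMARCA4-KD1), 4129 (SMARCA4-KD2) and 14026 (NC), which after scaling was 3.75-fold and 3.47-fold lower than NC. PRMT1, an arginine methyltransferase, had signals of 9801, 10147 and 7683 in the same order and was not lowered (log2 fold change 0.27 and 0.37). Of the epithelial markers EPCAM, CDH1, KRT8, KRT18 and KRT19, 5 of 5 were well above background on all 3 arrays, and CD3E, PECAM1 and HBB, markers of T cells, endothelium and erythroid cells, were well above background on none. PTPRC, COL1A1 and DES, markers of leukocytes, fibroblasts and muscle, were well above background on all 3, with NC signals of 46.3, 348 and 592. Between 45.7% and 47.3% of probes per array were well above background, and the 75th percentile used for scaling was 237, 228 and 223 for SMARCA4-KD1, SMARCA4-KD2 and NC. Both knockdown arrays were on slide 1 and the NC array was on slide 2, scanned separately, so slide and knockdown cannot be told apart in any difference from NC. With 1 array per group there is no replicate of any difference from NC, and precision is limited by the number of arrays.

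TNS4 was the tensin that differed clearly from NC. Its processed signal, the intensity of the spot after the background correction of the extraction software, read 1256 for SMARCA4-KD1, 1159 for SMARCA4-KD2 and 4029 for NC. Both knockdown arrays were low and close to each other, and NC stood apart above them. After each array was scaled to its 75th percentile, TNS4 was at 29.4% of NC in SMARCA4-KD1 and at 28.1% in SMARCA4-KD2. As log2 fold changes these were -1.77 ± 0.20 and -1.83 ± 0.20, or 3.40-fold and 3.56-fold lower, where the error is the one the extraction software gives for each signal, combined over both arrays. In cells measured in bulk, fewer cells that express a gene and less RNA per cell cannot be told apart.

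The reading of the TNS4 spot itself was examined. Before background correction its mean pixel intensity was 1250 ± 213 (SD over 44 pixels) for SMARCA4-KD1, 1174 ± 184 (46 pixels) in SMARCA4-KD2 and 3656 ± 455 (44 pixels) in NC. The standard error of the pixel mean was between 1.87% and 2.57% of the mean. The median background beside the spot was 24, 25 and 21, and no array was saturated at this spot. Pixels of a spot are repeated readings of 1 hybridization and not replicates of the cells.

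**Figure D1:**
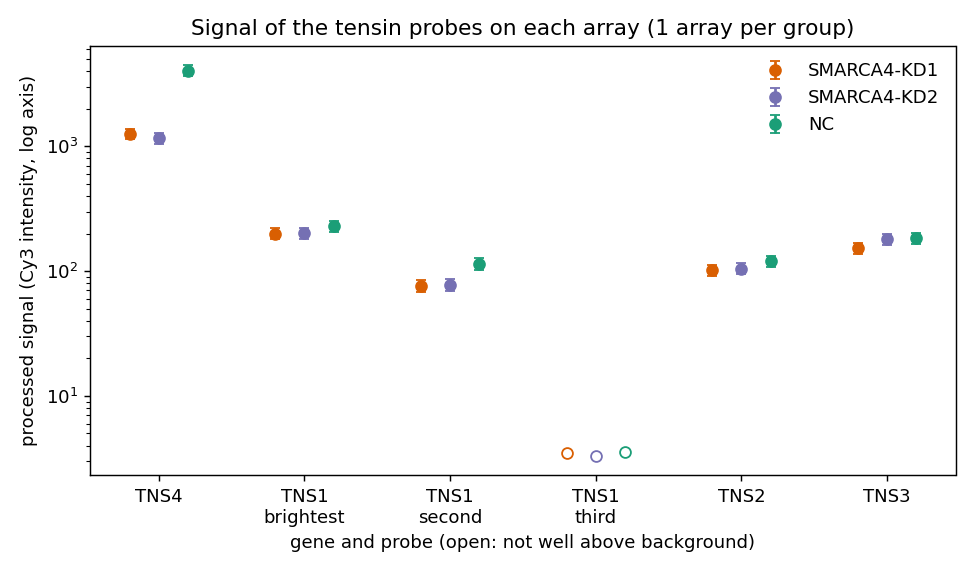
Processed signal (Cy3 intensity, log axis) of the 6 tensin probes on the SMARCA4-KD1, SMARCA4-KD2 and NC arrays, 1 point per array, with error bars for the error given by the extraction software and open points for signals not well above background. NC lies at 4029 for TNS4 and the knockdowns at 1256 and 1159, while the bars of the arrays overlap for TNS2, TNS3 and the brightest TNS1 probe.

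The size of the TNS4 difference was set beside other genes on the same arrays. Of 22620 measured genes, 85 (0.376%) had a lower change than TNS4 in SMARCA4-KD1, 43 (0.190%) had a lower change in SMARCA4-KD2, and 41 were lower than TNS4 in both. Among the 2120 genes whose mean log2 level was within 0.5 of that of TNS4, none was lower in SMARCA4-KD1 and 1 was lower in SMARCA4-KD2. The 2 knockdown arrays differed by 0.06 on the log2 scale for TNS4. In those 2120 genes the median size of the difference between the knockdown arrays was 0.09 and its 95th percentile was 0.32. Probes spotted 10 times on each array give a measure of noise within an array. In the 123 of them within 1 log2 unit of TNS4 the median SD between spots was 0.03 and the highest 0.08. Both knockdown arrays shared a slide and NC was on another. Neither spread therefore covers variation between slides, which a difference from NC includes.

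TNS1, which links integrins to actin and is abundant in fibroblasts and muscle, was measured by 3 probes that did not give the same size of change. The brightest probe, which stands for the gene, had signals of 200.03 (SMARCA4-KD1), 202 (SMARCA4-KD2) and 228 (NC), with log2 fold changes of -0.28 ± 0.21 and -0.21 ± 0.21. The second probe had signals of 76.2, 77.5 and 114, with log2 fold changes of -0.67 ± 0.22 and -0.59 ± 0.22. This second probe was 1.59-fold and 1.51-fold lower than NC, just past the threshold of 1.5-fold, and the brightest was 1.21-fold and 1.16-fold lower, within it. The remaining probe, across the splice junction, had signals of 3.47, 3.32 and 3.58, not well above background on any array, so it gives no fold change. When the 2 detected probes were averaged, TNS1 changed by -0.47 in SMARCA4-KD1 and -0.40 in SMARCA4-KD2.

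TNS2, a tensin with an additional C1 domain, had signals of 102 (SMARCA4-KD1), 105 (SMARCA4-KD2) and 120 (NC). Its log2 fold changes were -0.32 ± 0.22 and -0.23 ± 0.21, or 1.25-fold and 1.17-fold lower. TNS3, a tensin that in epithelial cells is known to fall as TNS4 rises after EGF, had signals of 153 (SMARCA4-KD1), 180 (SMARCA4-KD2) and 183 (NC). Its log2 fold changes were -0.34 ± 0.21 and -0.05 ± 0.21. For TNS3 the SMARCA4-KD1 array was the low one, and SMARCA4-KD2 was nearly level with NC. The difference between the 2 knockdown arrays, -0.29 ± 0.21, was larger than that of 78.4% of all genes, against 28.1% for TNS1, 38.2% for TNS2 and 27.3% for TNS4.

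Counted as a family, 1 of 4 tensins, TNS4, was at least 1.5-fold lower than NC in SMARCA4-KD1, where 12.2% of all genes were, and in SMARCA4-KD2, where 9.77% were. In both knockdowns at once this was 1 of 4 against 8.03% of all genes, and no tensin was at least 1.5-fold higher, against 6.36%. A single NC array served both knockdowns, so these counts are not independent of each other. All 4 were below NC in both knockdowns by any amount, as were 39.3% of all genes. This last count depended on the scaling. The 8 spike-in controls, RNAs added to each sample in fixed amounts, were on average 0.30 ± 0.09 (SD) lower in SMARCA4-KD1 and 0.32 ± 0.10 lower in SMARCA4-KD2 than in NC after scaling to the 75th percentile. When the arrays were scaled to the spike-in controls instead, the median of all genes moved to 0.30 and 0.34. The genes lower and higher in both knockdowns went from 1816 and 1439 to 654 and 4341, and TNS4 was at -1.46 and -1.51. This scaling shifts every gene of an array by the same amount, so the distance of TNS4 from that median could not change. TNS1 then stood at 0.027 and 0.11, TNS2 at -0.021 and 0.088 and TNS3 at -0.040 and 0.26, so the direction of these 3 genes against NC was not settled. The median over the 4 tensins was -0.33 and -0.22, and over all genes it was 0.00 and 0.02.

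**Figure D2:**
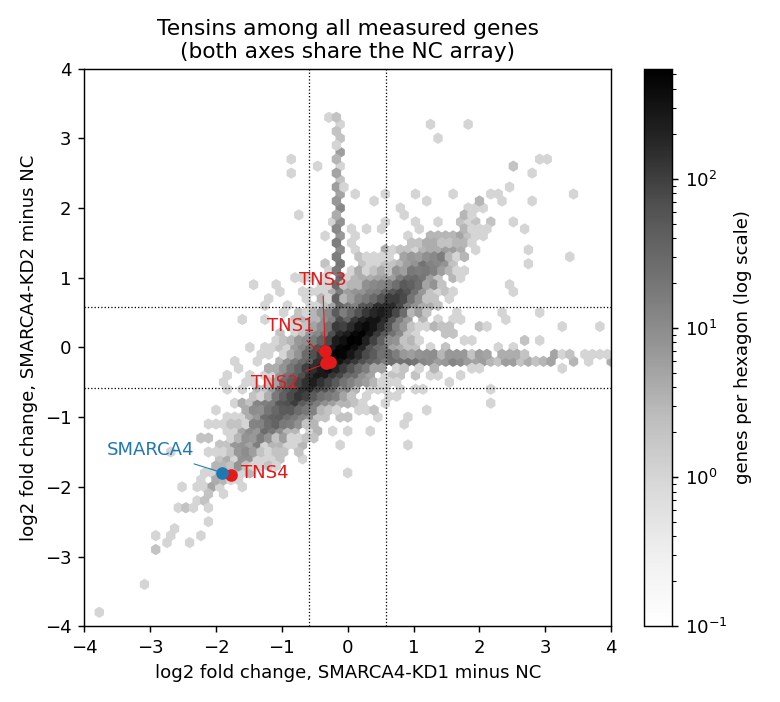
Log2 fold change in SMARCA4-KD1 (horizontal) and in SMARCA4-KD2 (vertical), each minus the same NC array, with genes counted in hexagons on a log grey scale, tensins in red, SMARCA4 in blue and dotted lines at 1.5-fold. TNS4 lies at -1.77 and -1.83 beside SMARCA4 while TNS1, TNS2 and TNS3 lie near the middle. Straight arms hold genes at the lowest detectable level on 2 arrays, and 21 genes lie outside the plotted range.

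Both knockdowns were then compared with NC in 1 fit over all genes with limma, in which the 2 siRNAs serve as the replicates and NC has none, leaving 1 residual degree of freedom. TNS4 had a log2 fold change of -1.80 ± 0.08 (SE), with an adjusted p of 0.0939. TNS1 had a log2 fold change of -0.24 ± 0.12, with an adjusted p of 0.305 by limma. TNS2 changed by -0.28 ± 0.15, with an adjusted p of 0.319 by limma, and TNS3 changed by -0.20 ± 0.19, with an adjusted p of 0.566. No tensin passed an adjusted p of 0.05 and neither did any other gene (0 of 22620 genes, 0%), although 6954 genes had an unadjusted p under 0.05 by limma, and the methods' t-test also called 0 after adjustment. At the threshold of the methods, an unadjusted p of 0.01 with 1.5-fold, that t-test on these arrays called 436 genes, and TNS4, with an unadjusted p of 0.0196, was not one of them. That t-test was built here for these arrays. It set both knockdown arrays against the single NC array and took its spread from the knockdown arrays alone. The study's array methods give a p threshold without naming the test, and they list more than 1 control. Its own calls were therefore not repeated here. By limma, the call for TNS4 rested on the filter and the scaling. When only the 19504 genes detected on every array entered, limma called 5174 (26.5%), and TNS4 was one of them, with an adjusted p of 0.000543. With quantile normalization its adjusted p was 0.0229. The other 3 tensins were not called under any of these alternatives, and this fit cannot separate knockdown from slide.

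A comparison of tensins within an array is unaffected by a scaling that uses 1 factor per array, though quantile normalization moved it slightly, by less than its error. On the log2 scale TNS4 fell further than TNS1 by 1.49 in SMARCA4-KD1 and by 1.62 in SMARCA4-KD2, a difference in change of 2.81-fold and 3.08-fold. Against TNS2 the difference was 2.72-fold and 3.04-fold, and against TNS3 it was 2.68-fold and 3.43-fold. Read by their brightest probes, the other 3 tensins were at most 1.05-fold apart on the SMARCA4-KD1 array and 1.13-fold apart on the SMARCA4-KD2 array. This closeness depended on the TNS1 probe. The second TNS1 probe changed by -0.67 and -0.59, further down than TNS3 at -0.34 and -0.05. With the 2 detected TNS1 probes averaged, TNS4 minus TNS1 came to -1.29 and -1.43 on the log2 scale. Near-equal change of TNS1, TNS2 and TNS3 is therefore not settled. The ratios for TNS4 show unequal change, and no replicate array gives their spread.

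**Figure D3:**
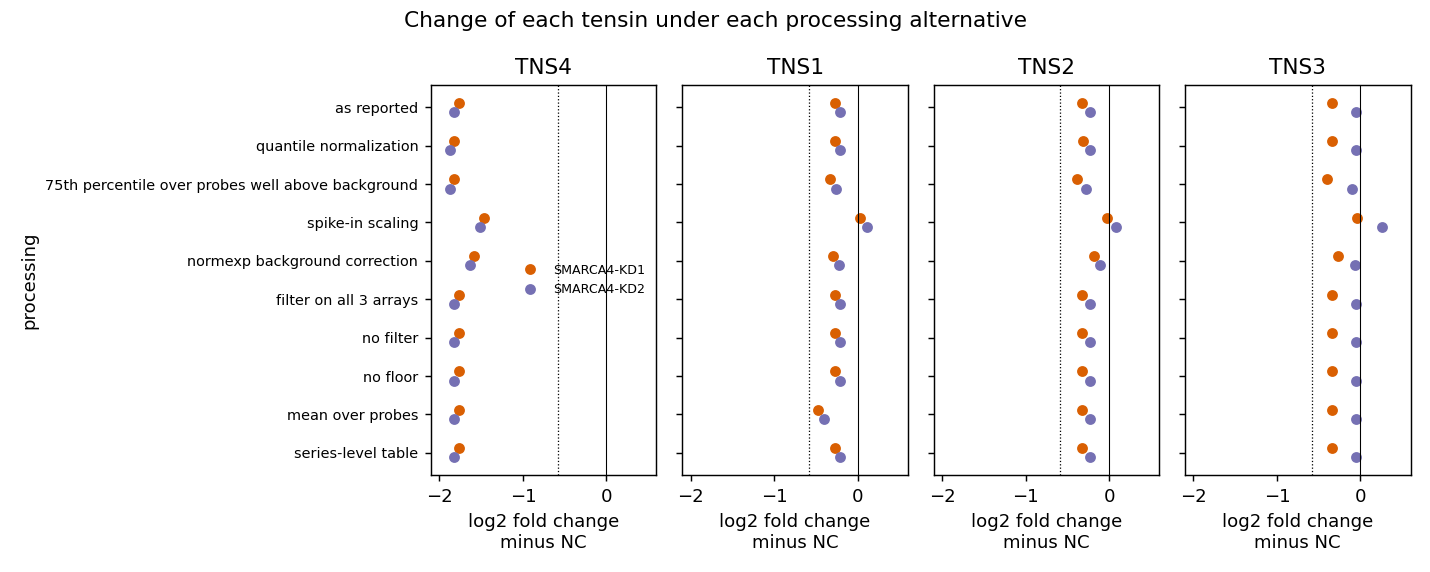
Log2 fold change against NC (horizontal, log2 units) of each tensin in SMARCA4-KD1 and SMARCA4-KD2 under each processing alternative (vertical), with a solid line at 0 and a dotted line at 1.5-fold lower. TNS4 stays between -1.88 and -1.46 throughout, while TNS1, TNS2 and TNS3 move to values around 0 under spike-in scaling.

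Proteins that work with tensins were described next, first those that bind them in signaling. EGFR, the EGF receptor, had signals of 865 (SMARCA4-KD1), 817 (SMARCA4-KD2) and 1087 (NC) on its brightest probe, with log2 fold changes of -0.41 and -0.44, within 1.5-fold. A second EGFR probe changed by -0.11 and -0.26. The other, the dimmest, had signals of 41.3, 29.9 and 33.4 and changed by 0.22 and -0.19. The lowest signals well above background on these arrays were 16.9, 16.2 and 17.7. In the scanner files the EGFR probes thus did not share a direction in SMARCA4-KD1, where only the dimmest was above NC. For that second probe the series-level table holds other values, 7.12, 6.36 and 11.3 in place of 98.8, 85.6 and 100.5, and by these that probe was 1.68-fold and 1.81-fold lower than NC. MET, the HGF receptor and a partner of TNS4, had signals of 25430, 23293 and 38279 and was 1.60-fold and 1.68-fold lower. CBL, a ubiquitin ligase that acts on EGFR and is bound by TNS4, had log2 fold changes of -0.06 and 0.06. DLC1, a RhoGAP tumor suppressor bound by tensins, was not well above background on any array with either of its 2 probes. Its relative STARD8 was 1.71-fold and 1.60-fold lower, with signals of 184, 190 and 297. Of the 10 measured partners, 2 were lower, MET and STARD8, and 0 were higher in both knockdowns, against 8.03% and 6.36% of all genes. The median of the partners was -0.17 and -0.20. Under spike-in scaling 0 partners were lower and 2 were higher, where 654 and 4341 of all 22620 genes were.

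The focal adhesion list held 29 adaptors and kinases, of which 28 were measured. Of these, 6 were at least 1.5-fold lower and 1 was higher in both knockdowns, against 8.03% and 6.36% of all genes, and 21 were neither. Under spike-in scaling 1 was lower and 8 were higher, where 654 and 4341 of all 22620 genes were. The median was -0.07 and -0.11. PARVA, a parvin that binds integrin-linked kinase and actin, had signals of 247 (SMARCA4-KD1), 292 (SMARCA4-KD2) and 783 (NC) and was 3.36-fold and 2.74-fold lower. LIMS2, a PINCH protein of the same complex, had signals of 996, 1132 and 1890 and was 2.01-fold and 1.71-fold lower. VASP, which promotes the growth of actin filaments, had signals of 2142, 2279 and 3800 and was 1.88-fold and 1.70-fold lower. SRC, the tyrosine kinase, was the gene that was higher, with signals of 791, 710 and 445, and it was 1.67-fold and 1.56-fold above NC. The third member of the complex of PARVA and LIMS2, the kinase ILK, had log2 fold changes of 0.36 and -0.04. LIMS1, the other PINCH protein of the list, changed by 0.05 and 0.03, and PARVB, the other parvin of the list, by -0.33 and -0.66.

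Of 13 integrin subunits 11 were measured, and 2 were lower and 0 higher in both knockdowns, with a median of -0.23 and -0.29. ITGB8, a beta subunit that pairs with ITGAV, had signals of 23.4, 34.2 and 62.7 and was 2.84-fold and 1.87-fold lower. The lowest signal well above background on the SMARCA4-KD1 array was 16.9, near that of ITGB8. ITGA3, a subunit of a laminin receptor, had signals of 2315, 1805 and 3473 and was 1.59-fold and 1.97-fold lower. With another background correction (normexp), 0 integrin subunits were at least 1.5-fold lower in both knockdowns. ITGB1, the beta subunit whose tail tensins bind, was spotted 10 times on each array and changed by -0.03 and 0.10. Each list was read against the 8.03% of all genes lower and 6.36% higher in both knockdowns, and no list was tested. Over these lists and the IGF binding proteins, 4 in all, 10 genes were lower and 1 was higher in both knockdowns. Under spike-in scaling these became 2 and 9, while the counts over all genes went from 1816 and 1439 to 654 and 4341.

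**Figure D4:**
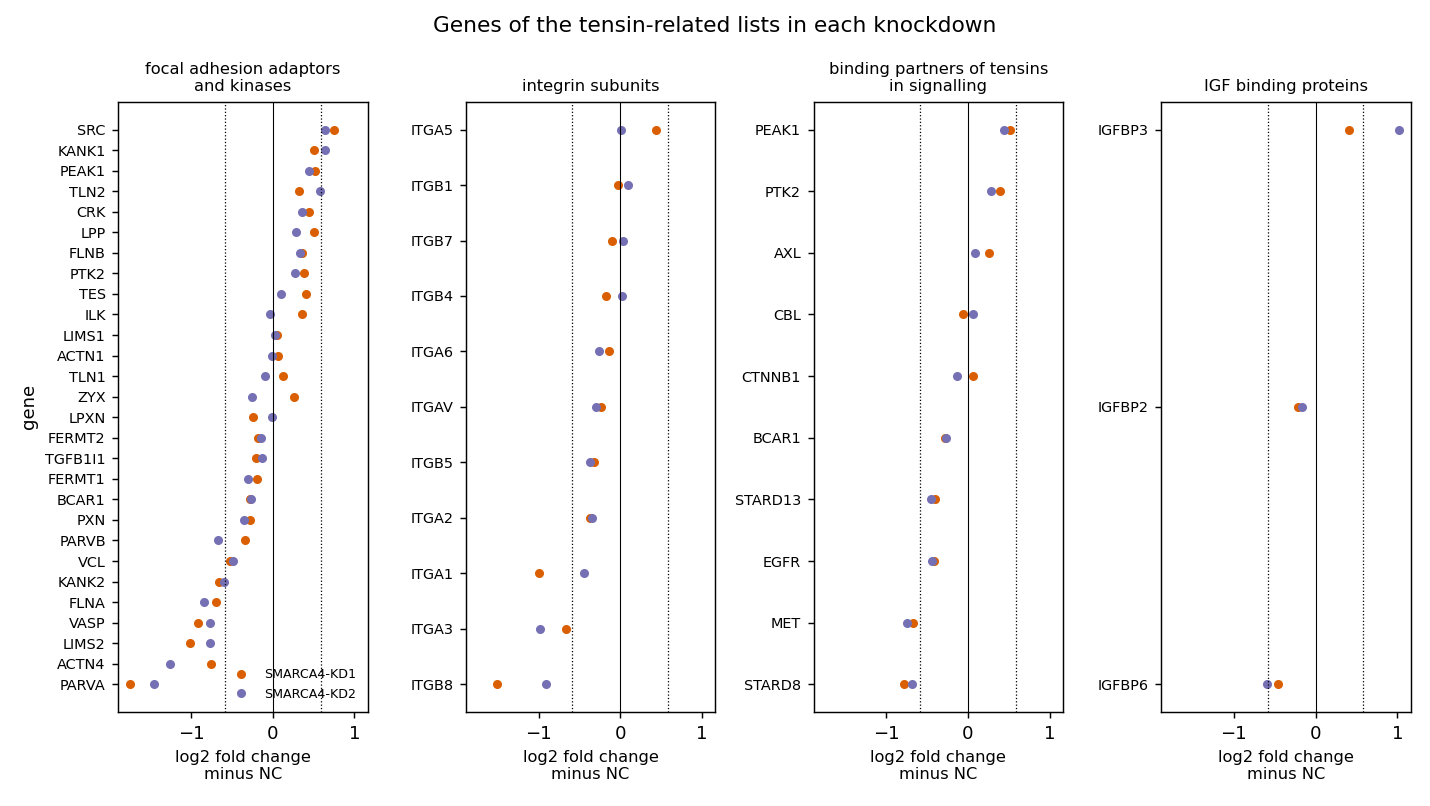
Log2 fold change against NC (horizontal, log2 units) of each measured gene (rows) of 4 tensin-related lists (panels) in SMARCA4-KD1 and SMARCA4-KD2, with a solid line at 0 and dotted lines at 1.5-fold. In the focal adhesion panel 6 genes lie past 1.5-fold lower in both knockdowns, with PARVA lowest, and SRC lies past 1.5-fold higher.

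The chromosomal surroundings of the tensins were examined because each tensin gene shares its chromosome with genes for IGF binding proteins. In the array's coordinates the probe of IGFBP4 lies 18.8 kb from that of TNS4 and the probe of IGFBP6 lies 37.3 kb from that of TNS2. IGFBP2 and IGFBP5 lie 1136 and 1128 kb from TNS1, and IGFBP1 and IGFBP3 lie 1382 and 1363 kb from TNS3. IGFBP4, the closest to TNS4, had signals of 3.47 (SMARCA4-KD1), 3.30 (SMARCA4-KD2) and 4.88 (NC), not well above background on any array. IGFBP6 had signals of 2504, 2198 and 3240, with log2 fold changes of -0.46 and -0.59. IGFBP2 changed by -0.21 and -0.16, and IGFBP3 by 0.41 and 1.02, with signals of 127, 187 and 90.4. IGFBP1 and IGFBP5 were not well above background on any array. None of the 3 measured genes was past 1.5-fold in both knockdowns.

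Within 500 kb of the TNS4 probe 29 other genes were measured, of which 2 were lower and 3 higher in both knockdowns, with a median of 0.18 and 0.13, where 8.03% of all genes were lower and 6.36% higher. The nearest measured gene towards lower coordinates was TOP2A, a topoisomerase of dividing cells, at 86.4 kb. It had signals of 1819 (SMARCA4-KD1), 1761 (SMARCA4-KD2) and 2801 (NC) and was 1.63-fold lower in both. The nearest towards higher coordinates was LOC101059954, at 50.8 kb, with signals of 34.9, 47.8 and 186, and it was 5.66-fold and 3.99-fold lower. LOC101059954 and TNS4 were the only genes of this region, among those measured, that were over 2-fold lower in both knockdowns. TMEM99 at 360 kb was 2.71-fold and 2.42-fold higher, and lnc-TMEM99-5 at 173 kb was 2.25-fold and 2.30-fold higher. KRT20, a keratin of differentiated intestinal epithelium, was not well above background in NC, and at 400.4 kb it was at least 2.15-fold higher in SMARCA4-KD1 and at least 2.81-fold higher in SMARCA4-KD2. SMARCE1, another SWI/SNF subunit in this region, changed by 0.02 and 0.13.

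**Figure D5:**
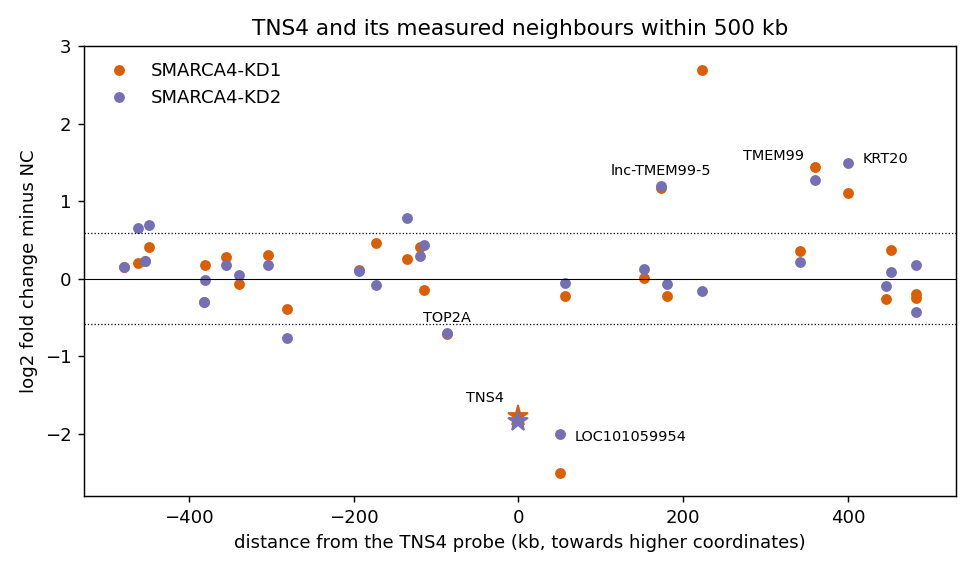
Log2 fold change against NC (vertical, log2 units) of TNS4 (stars) and of the 29 measured genes within 500 kb of its probe (circles), by distance from the TNS4 probe (horizontal, kb), with dotted lines at 1.5-fold. TNS4 and LOC101059954 lie lowest, and TOP2A on the other side lies just past 1.5-fold lower.

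Around TNS2 36 genes were measured within 500 kb, of which 2 were lower and 3 higher in both knockdowns, against the same 8.03% and 6.36% of all genes. The nearest on either side, SPRYD3 at 1.08 kb and LOC283335 at 20.4 kb, changed by 0.13 and 0.03 and by 0.24 and 0.26. MAP3K12, a kinase, was 2.04-fold and 1.71-fold lower and ESPL1, the protease separase, was 1.60-fold and 1.61-fold lower. The 3 higher ones were CSAD, an enzyme of taurine synthesis, at 1.73-fold and 1.51-fold, ATF7, a transcription factor, at 1.60-fold and 1.51-fold, and a transcript named ENST00000550578 at 1.81-fold and 1.87-fold. The number of higher neighbours of TNS2 depended on the processing. It was 1 with quantile normalization, the 75th percentile over probes well above background, or normexp background correction. It was 10 under spike-in scaling, where 4341 of all 22620 genes were higher in both knockdowns. Around TNS1 9 genes were measured, all at higher coordinates. The nearest was an unnamed probe at 270 kb that was well above background in NC alone and at least 1.59-fold lower in both knockdowns, and none of the others passed 1.5-fold in both. Around TNS3 only 2 were measured, both at lower coordinates and neither past 1.5-fold in both, and the nearer, ENST00000315132 at 222 kb, changed by -0.10 and 0.01.

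The genes with the pattern most like TNS4 were found among the 19497 genes whose probe was detected on every array, by the Euclidean distance between their 3 log2 levels after each gene's mean was subtracted. The 5 nearest were MYBL1 (distance 0.04), CTB-178M22.2 (0.04), SYT1 (0.06), MYBL2 (0.08) and ZCCHC12 (0.08). MYBL1 and MYBL2 are transcription factors of the MYB family, and SYT1 is a synaptotagmin of regulated secretion. MYBL1 had signals of 593 (SMARCA4-KD1), 557 (SMARCA4-KD2) and 1872 (NC), with log2 fold changes of -1.74 and -1.78. MYBL2 had signals of 181, 180 and 614, with log2 fold changes of -1.84 and -1.80. SYT1 had signals of 714, 654 and 2169. The likeness rests on 3 arrays, and in such a pattern any gene that fell to a similar share of NC in both knockdowns is near.

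Promoter sequence was available for TNS1, TNS2 and TNS3 in a RefSeq table (GRCh38.p14, 250 bases before to 50 after each start), with 5, 3 and 3 starts. On both strands the GC box GGGCGG occurred in 3 of 5, 1 of 3 and 1 of 3 of these windows, and in 45.0% of all 35116 promoters. The AP-1 letters TGACTCA (4.95% of all promoters), TGACGTCA (1.85%), the E-box CACGTG (7.26%), TATAAA (11.5%) and the EGR letters GCGTGGGCG (0.795%) occurred in none of the 11 windows. No overlap between motifs was counted. These matches describe letters and not binding sites.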

How the data were processed

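Total RNA of HCT116 cells was hybridised to Agilent SurePrint G3 arrays (version 3), 1 per group (SMARCA4-KD1, SMARCA4-KD2 and NC). The authors deposited spot intensity from Agilent's extraction software (Feature Extraction 10.7.1.1), with background subtracted and no normalization between arrays. Other deposited columns, flags coded 0 or 1 and pixel numbers, were used as given. The knockdown number came from the treatment field.

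Outlier spots were dropped, repeated spots averaged, and log2 signals set relative to each array's 75th percentile (Python 3.11.15, numpy 2.4.6, pandas 2.3.3). Values not well above background were raised to the lowest value well above it on that array. A probe had to be well above background on 1 array or more, and a gene was read by its brightest probe. Single knockdowns were compared at 1.5-fold, the study's threshold, without a test, and both together by limma 3.58.1 (R 4.3.3) (intensity trend, p adjusted by Benjamini-Hochberg over all genes). For the tensins the authors' series-level table equalled the scanner signals within 0.1%.

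The members, lists, tests and alternatives were chosen with earlier results of these data known. Genes were named by rule: tensins, SMARCA4, PRMT1, 5 partners, up to 3 genes per list and direction past 1.5-fold in both knockdowns by the smaller change, measured IGFBP genes, nearest and changed neighbours, and the 5 genes most like TNS4. Genes named outside the rule (ILK, LIMS1, PARVB, SMARCE1, IGFBP1, IGFBP4 and IGFBP5) were chosen after their values were seen. On simulated data with 200 of 22620 genes changed, all 200 had the right sign in the mean of both knockdowns against NC. Of these, 199 passed 1.5-fold in each knockdown. The simulated noise was taken from the difference between the knockdown arrays, with no slide effect. The simulation therefore checks the code and cannot show how reliable a difference from NC is. Some items are not reported here.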

Additional observations from a re-analysis of the deposited data

How the results depend on the processing

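The series holds 1 array of each group, so no result could be repeated without a replicate, and slide and knockdown cannot be told apart. The tensin log2 fold changes moved by less than the error of the extraction software under quantile normalization, the 75th percentile over probes well above background and normexp background correction. The mean over probes could move TNS1 alone, to -0.47 and -0.40, also by less than that error. Both other filters and no floor could not move any tensin, because the probes that stand for them were well above background on all 3 arrays. The series-level table holds the same tensin signals within 0.1%. Spike-in scaling moved all 8, to -1.46 and -1.51 for TNS4, 0.027 and 0.11 for TNS1, -0.021 and 0.088 for TNS2 and -0.040 and 0.26 for TNS3 (SMARCA4-KD1 and SMARCA4-KD2). The differences between tensins within an array and between both knockdown arrays moved by less than their error under every alternative run. Both other filters and no floor could move neither, and scaling by 1 factor per array could not move those within an array.

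Among all 22620 genes, those at least 1.5-fold lower numbered 2760 (SMARCA4-KD1), 2209 (SMARCA4-KD2) and 1816 (both), with 1439 higher in both. Under spike-in scaling these were 1152, 804, 654 and 4341, under normexp 1355, 1013, 859 and 902, and at 2-fold 821, 589, 476 and 330. Of the genes of the 4 tensin-related lists, 10 were lower and 1 higher in both knockdowns, which became 2 and 9 under spike-in scaling and 1 and 0 at 2-fold. Measured neighbours numbered 9 for TNS1, 36 for TNS2, 2 for TNS3 and 29 for TNS4. Of all these, 5 were lower and 6 higher, where 8.03% and 6.36% of all genes were. The neighbour counts became 1 and 16 under spike-in scaling, 3 and 3 under normexp, and 1 and 3 at 2-fold. The counts over all genes moved in the same directions as those of the lists and the neighbours under spike-in scaling and at 2-fold. Of the 5 genes most like TNS4, 2 remained among the 5 under normexp and 2 with the mean over probes. The genes called by limma rose from 0 to 5174 with the filter on all 3 arrays, to 2651 with quantile normalization and to 6954 at an unadjusted p of 0.05, and the p of TNS4 was 0.000543 (adjusted), 0.0229 (adjusted) and 0.000254 (unadjusted). Over all its alternatives its adjusted p ran from 0.000543 to 0.286, the highest by the methods' t-test. The SE that limma gave TNS4 was 0.080 as reported. It was larger, at 0.112, with the filter on all 3 arrays and at 0.097 with quantile normalization. Why the adjusted p of TNS4 differed between these settings was not tested.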
